A study of Homo sapiens with 6 samples.

Results

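MAP kinase phosphatases are dual-specificity phosphatases that switch MAP kinases off by removing phosphate from the threonine and the tyrosine of the kinase activation loop. The 10 catalytically active genes of this family, DUSP1, DUSP2, DUSP4, DUSP5, DUSP6, DUSP7, DUSP8, DUSP9, DUSP10 and DUSP16, were taken by gene symbol from a table of 60591 genes, and all 10 had a row. They are sorted by where the protein acts and which kinase it prefers. DUSP1, DUSP2, DUSP4 and DUSP5 form the nuclear class, DUSP6, DUSP7 and DUSP9 the cytoplasmic class selective for ERK, and DUSP8, DUSP10 and DUSP16 the class that acts mainly on the stress-activated kinases JNK and p38. Many of these genes are themselves switched on by the kinases their products inactivate, so their transcripts are widely read as negative feedback on MAP kinase signalling.

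The cells were KYSE150, an established human line from an oesophageal squamous cell carcinoma. Cells were kept without serum overnight and then given TPA, a phorbol ester that activates protein kinase C, at 10 ng/ml for 24 h (3 libraries). The comparison group was labelled DMSO, the usual solvent of TPA (3 libraries), and its labels give no dose or time of their own. The labels do not state whether the 3 libraries of a group are separate cultures, and if they are not, the p-values reflect technical spread alone. In RNA from whole cultures, fewer cells with a transcript and less of it per cell cannot be told apart.

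Library totals ran from 27702329 to 33965547 read counts. The libraries of a group were not all equally alike. DMSO 2 with DMSO 3 and TPA 2 with TPA 3 were close (r = 0.993 and 0.992 across genes, on log2 CPM), while TPA 1 stood apart from TPA 2 and TPA 3 (0.927 and 0.936). DMSO 1 differed less from DMSO 2 and DMSO 3 (0.978 and 0.977). All 8 squamous epithelial markers had counts, with SOX2 low throughout (0 CPM in TPA 1 to 1.95 CPM in DMSO 2). Their summed level was 1402 CPM in DMSO 1 and 1052 CPM in TPA 1. The other DMSO libraries had 2914 to 2981 CPM and the other TPA libraries 2076 to 2100 CPM. Of the 8, 7 were lowest in the library numbered 1 of each group, and EPCAM went the other way (147 against 118 and 115 CPM in DMSO, 152 against 126 and 131 CPM in TPA). Of 6 fibroblast markers 5 had a count (0 for DCN), with sums of 3.05 to 12.2 CPM, mostly COL1A1. The 6 leukocyte markers summed to 3.52 to 8.45 CPM and the 4 endothelial markers to 1.09 to 3.00 CPM. Results below include fits with DMSO 1 or TPA 1 left out. Fold changes with both left out are given for some members only. These correlations run across genes, which are no replicates, and carry no p.

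Promoter sequence is shown first for members whose levels later turn out to share one feature, a high level in DMSO 1. They were picked after their values were seen. DUSP5 shares the feature but had no sequence. A link between promoter sites and these levels was not tested. RefSeq start sites (GRCh38.p14) were found for 8 of the 10 members, all but DUSP4 and DUSP5. Both DUSP1 and DUSP8 held the full cyclic AMP response element TGACGTCA, the site bound by CREB and ATF family factors, DUSP1 with 1 copy and DUSP8 with 2. The 250 bases before each start site are printed from 5′ to 3′, with TGACGT on either strand in capitals, so that a full element appears as 8 capitals. DUSP10, the third such gene with a sequence, had no TGACGT in either of its 2 windows, and the window of its upstream start is printed beside the others.
DUSP1, chr5:172771196-172771445, minus strand: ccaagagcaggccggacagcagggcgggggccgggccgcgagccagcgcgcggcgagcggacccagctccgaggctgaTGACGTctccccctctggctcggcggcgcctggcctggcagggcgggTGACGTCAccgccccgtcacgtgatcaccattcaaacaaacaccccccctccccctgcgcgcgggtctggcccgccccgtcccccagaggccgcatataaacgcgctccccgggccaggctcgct
DUSP8, chr11:1572272-1572521, minus strand: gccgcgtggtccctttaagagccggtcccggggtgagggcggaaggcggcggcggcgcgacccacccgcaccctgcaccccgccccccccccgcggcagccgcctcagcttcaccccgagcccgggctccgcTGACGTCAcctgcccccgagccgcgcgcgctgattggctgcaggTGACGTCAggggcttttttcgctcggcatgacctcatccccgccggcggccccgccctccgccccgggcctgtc
DUSP10, chr1:221742090-221742339, minus strand: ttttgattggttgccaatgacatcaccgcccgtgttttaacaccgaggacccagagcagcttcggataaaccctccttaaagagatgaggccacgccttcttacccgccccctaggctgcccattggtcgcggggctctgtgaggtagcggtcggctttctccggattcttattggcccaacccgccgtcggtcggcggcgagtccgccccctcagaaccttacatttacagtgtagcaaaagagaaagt

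Among 35116 promoter windows of 300 bases (250 before to 50 after the start), 1.85% held TGACGTCA and 7.98% held its shorter form TGACGT on either strand. In DUSP1 the full element lay 125 to 118 bases before the start site, and a further TGACGT lay 172 to 167 bases before it. In DUSP8 the copies lay 118 to 111 and 74 to 67 bases before the start. The E-box CACGTG was in the windows of DUSP1 and DUSP2 (7.26% of all windows), and CCAAT in those of DUSP6, DUSP7, DUSP8 and DUSP10 (34.6%). The AP-1 site TGANTCA (7.71% of all windows), the ETS site CCGGAAGT (4.14%) and the serum response CArG box (1.29%) were in the window of no member. The NF-kB motif (5.91%) was in that of DUSP9 only. All motifs were searched on both strands, and each TGACGTCA contains TGACGT on both strands. A match is a run of letters and not a measured binding site, and no match says nothing of sites outside the window.

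The study's comparison was used to ask whether TPA-treated cells hold more or less of these phosphatase transcripts than the DMSO cells. DUSP5 and DUSP1 had the largest values, with TPA means 2.77 and 2.68 times the DMSO means, and neither passed the test of 3 against 3 libraries. Of the 9 members with enough counts to be tested, 0 were called higher and 0 lower by edgeR's quasi-likelihood test (threshold 0.05 after Benjamini-Hochberg adjustment over 21825 genes), where 0.861% of all genes were higher and 0.394% lower. At an unadjusted p under 0.05 there were 2 members (DUSP5 and DUSP1), against 22.1% of all genes. DESeq2 called both higher, and limma-voom and edgeR with no count filter called DUSP5 (7.80%, 1.13% and 1.06% of all genes higher). With the replicate number as a block, DUSP5 and DUSP1 were called higher and 0 members lower (4.58% of all genes higher and 6.52% lower). No label names such a block. It was taken from these same data, in which only number 1 is set apart, and every adjusted p with the block depends on that choice. Without TPA 1, 4 members were called higher (DUSP4, DUSP5, DUSP6 and DUSP7) and 0 lower, against 24.6% of all genes higher and 27.8% lower. With DMSO 1 and TPA 1 both left out there were 7 members higher and 0 lower, against 32.2% of all genes higher and 33.3% lower. Most genes passed in those 2 fits, so a pass there says little of a member. Without DMSO 1, DUSP1 and DUSP5 were called higher and 0 members lower, against 0.449% and 0.169% of all genes. Leaving out any of the other 4 libraries called 0 members. The median log2 fold change of the 9 was 0.40, against -0.11 over all tested genes, and 7 of the 9 were positive, against 44.0% of all genes. All 3 TPA libraries lay above all 3 DMSO libraries for DUSP1, DUSP5 and DUSP6, which is the case for 14.3% of all tested genes. The reverse held for 0 members and 15.2% of genes.

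**Figure D1:**
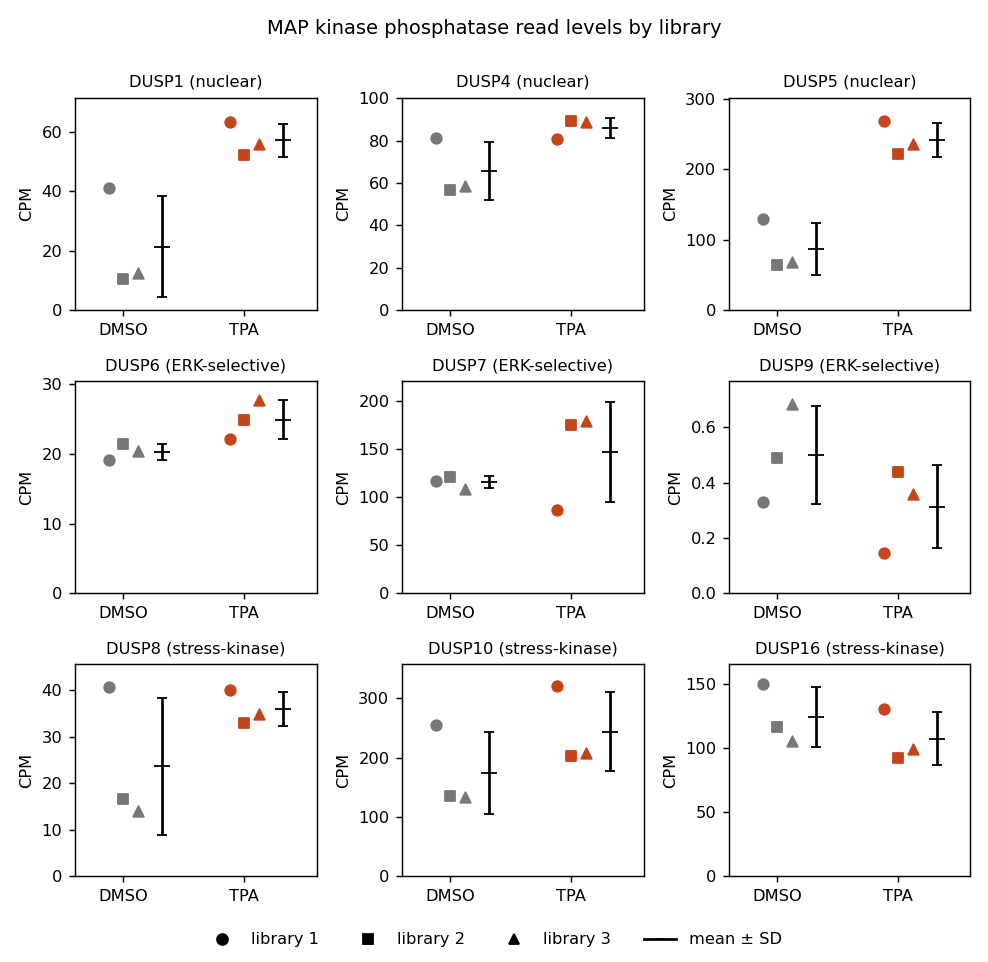
Read level in CPM (y axis, from 0, a separate scale per gene) of the 9 tested members in each DMSO (grey) and TPA (red) library, with circles, squares and triangles for libraries 1, 2 and 3 and a bar for the mean ± SD. DMSO 1 stands well above the other DMSO libraries for DUSP1, DUSP5, DUSP8 and DUSP10, and TPA 1 well below the other TPA libraries for DUSP7.

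In the nuclear class, DUSP5 (chromosome 10, 110497838 to 110511544, GRCh38) encodes an inducible phosphatase that acts on ERK and holds it in the nucleus. It had 130, 63.5 and 68.5 CPM (reads scaled to a common library size and composition) in DMSO 1, 2 and 3, and 269, 222 and 236 CPM in TPA 1, 2 and 3. Every TPA library was above every DMSO library, and DMSO 1 lay between the other DMSO libraries and the TPA libraries. With 3 libraries a group, the means ± SD were 87.3 ± 37.0 CPM in DMSO and 242 ± 24.0 CPM in TPA. The log2 fold change was 1.47 ± 0.31 (SE; edgeR adjusted p = 0.0651). With the block the log2 fold change was 1.55 ± 0.26 (edgeR adjusted p = 0.00663). By replicate number the log2 ratios of TPA to DMSO were 1.05, 1.81 and 1.78. The call was also reached without DMSO 1 (log2 fold change 1.88, edgeR adjusted p = 0.0424) and without TPA 1 (1.503, edgeR adjusted p = 0.00436), and not with any of the other 4 libraries left out (1.30 to 1.55, edgeR adjusted p = 0.176 to 0.354). Processed copies of the gene are annotated as pseudogenes, of which DUSP5P1 had 108 counts over all 6 libraries and DUSP5P2 had 0.

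DUSP1 (chromosome 5, 172768090 to 172771195) is the classic immediate-early phosphatase of the family and acts on p38, JNK and ERK. It had 40.9, 10.4 and 12.5 CPM in DMSO 1, 2 and 3. The TPA libraries held 63.3, 52.2 and 55.9 CPM. The TPA values were alike, and nearly all of the spread lay in DMSO, where DMSO 1 had 3.57 times the mean of DMSO 2 and DMSO 3, a ratio at the 99.1 percentile of all tested genes. The group means ± SD were 21.3 ± 17.0 and 57.1 ± 5.64 CPM, and the log2 fold change was 1.42 ± 0.52 (SE; edgeR adjusted p = 0.168). The log2 ratio was 0.63 in pair 1, against 2.32 and 2.16 in pairs 2 and 3. The block gave 1.71 ± 0.34 (edgeR adjusted p = 0.0141), and leaving out DMSO 1 gave 2.32 (edgeR adjusted p = 0.0384). It did not pass with any of the other 5 libraries left out (1.11 to 1.502, edgeR adjusted p = 0.0502 to 0.458), and was lowest without DMSO 2 and without DMSO 3 (1.11 and 1.16).

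DUSP4 (chromosome 8, 29333064 to 29350668), a nuclear phosphatase of ERK and JNK, had 81.2, 56.5 and 58.7 CPM in DMSO and 80.7, 89.1 and 88.7 CPM in TPA. DMSO 1 and TPA 1 were level, so the groups overlapped by that pair, with log2 ratios of -0.0091, 0.66 and 0.59 for pairs 1, 2 and 3. The log2 fold change was 0.40 ± 0.22 (SE; edgeR adjusted p = 0.343), 0.59 without DMSO 1 and 0.55 without TPA 1. It passed without TPA 1, as most genes did (edgeR adjusted p = 0.0298), and with none of the other 5 libraries left out (edgeR adjusted p = 0.235 to 0.686). DUSP2 (chromosome 2, 96143166 to 96145440), best known from activated lymphocytes, had 0 counts in 5 libraries and 2 in TPA 3. A count of 0 allows up to 0.0915 to 0.109 CPM (3 counts), so DUSP2 was not tested and no fold is given.

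In the ERK-selective class, DUSP6 (chromosome 12, 89347232 to 89353271) encodes the cytoplasmic phosphatase most often used as a readout of ERK activity. It had 19.1, 21.4 and 20.4 CPM in DMSO and 22.1, 24.8 and 27.8 CPM in TPA. The groups did not overlap, but the gap was small, with means of 20.3 ± 1.12 and 24.9 ± 2.84 CPM (SD, n = 3 each). The log2 fold change was 0.30 ± 0.21 (SE; edgeR adjusted p = 0.442), with pair ratios of 0.21, 0.22 and 0.45. Without TPA 1, where most genes passed, it was 0.49 (edgeR adjusted p = 0.0200), and it passed with none of the other 5 libraries left out (0.22 to 0.35, edgeR adjusted p = 0.621 to 0.802). In GENCODE 29 an antisense gene on the other strand shares 1875 exonic bases with DUSP6. The strand setting of the counting is not given in the sources used here, so reads from that stretch may be missing from DUSP6 or come from the other gene.

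DUSP7 (chromosome 3, 52048919 to 52056550), a cytoplasmic ERK phosphatase like DUSP6, had 117, 121 and 109 CPM in DMSO and 87.1, 175 and 179 CPM in TPA. Here the DMSO libraries were alike and TPA 1 was below them while TPA 2 and TPA 3 were above. The pair ratios were -0.42, 0.53 and 0.72, and the log2 fold change was 0.35 ± 0.30 (SE; edgeR adjusted p = 0.524). Leaving out TPA 1, where most genes passed, gave 0.73 (edgeR adjusted p = 0.00139). Leaving out any of the other 5 libraries gave 0.20 to 0.40 and no pass (edgeR adjusted p = 0.652 to 0.868). With the block and a correction for each library's trend on transcript GC content the value was -0.090 (edgeR adjusted p = 0.647). DUSP9 (chromosome X, 153642492 to 153651326), known mainly from placenta, had 10, 16 and 21 counts in DMSO and 4, 13 and 11 in TPA, or 0.145 to 0.684 CPM. Its groups overlapped (log2 fold change -0.66 ± 0.52, edgeR adjusted p = 0.490), and the value was -0.88 without DMSO 1, -0.22 without TPA 1 and -0.40 without both.

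In the stress-kinase class, DUSP10 (chromosome 1, 221701424 to 221742176) encodes a phosphatase of p38 and JNK. It had 254, 135 and 134 CPM in DMSO and 320, 203 and 208 CPM in TPA. Within each group the library numbered 1 was the highest, and the order of the groups was the same inside each pair, with log2 ratios of 0.33, 0.59 and 0.63. The log2 fold change was 0.48 ± 0.33 (SE; edgeR adjusted p = 0.426) and 0.52 ± 0.23 with the block (edgeR adjusted p = 0.147). It was 0.86 without DMSO 1 (edgeR adjusted p = 0.196), 0.35 without TPA 1 (0.319) and 0.76 without both, where it passed with most genes. It passed in the blocked fit with the GC correction (0.60 ± 0.13, edgeR adjusted p = 0.0308), which called 3 members higher, DUSP1, DUSP5 and DUSP10, and 0 lower, against 9.22% and 10.7% of all genes.

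DUSP8 (chromosome 11, 1554044 to 1571920), a phosphatase of JNK and p38, had 40.6, 16.5 and 13.9 CPM in DMSO and 39.9, 32.9 and 34.8 CPM in TPA. DMSO 1 was as high as TPA 1, whereas DMSO 2 and DMSO 3 were below every TPA library. The pair ratios were -0.023, 0.99 and 1.32, and the log2 fold change was 0.60 ± 0.41 (SE; edgeR adjusted p = 0.430). It was 1.24 without DMSO 1 (edgeR adjusted p = 0.0907), 0.41 without DMSO 2, 0.34 without DMSO 3 and 0.63 without TPA 1. Without both libraries numbered 1 it was 1.31 and passed, as most genes did. Its pseudogene DUSP8P5 had 103, 136 and 75 counts in DMSO and 163, 110 and 169 in TPA, so reads may be split between the copies. DUSP16 (chromosome 12, 12474210 to 12562383), which shuttles between nucleus and cytoplasm and prefers JNK, was the only well-expressed member with a negative value. It had 150, 117 and 105 CPM in DMSO and 130, 92.2 and 99.3 CPM in TPA, which overlapped. Its log2 fold change was -0.21 ± 0.24 (SE; edgeR adjusted p = 0.640), with pair ratios of -0.20, -0.34 and -0.084. It was -0.043 without DMSO 1, -0.095 without TPA 2, -0.26 without TPA 1 and -0.058 without both libraries numbered 1, and passed in none of these.

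**Figure D2:**
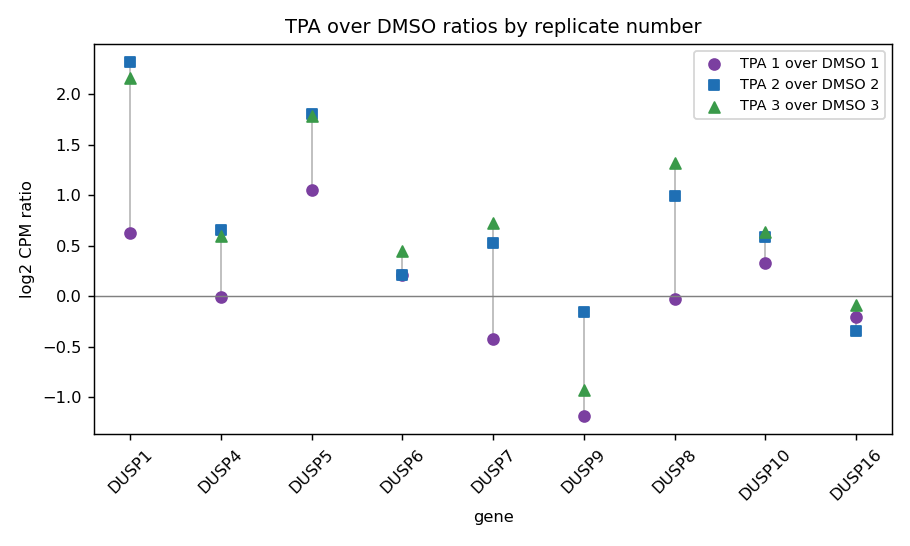
Log2 ratio of CPM in TPA over DMSO (y axis) for each tested member (x axis), 1 point for each replicate number, with a grey line over the range of the 3. Pair 1 lies lowest for every gene shown but DUSP16, at 0.63 for DUSP1 against 2.32 and 2.16 in the other pairs.

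The high level in DMSO 1 joined members of different classes. DUSP1, DUSP8, DUSP5 and DUSP10 had 3.57, 2.67, 1.97 and 1.89 times the mean of DMSO 2 and DMSO 3 in DMSO 1. Those 4 of the 9 tested members were at least 1.5-fold above it, against 13.1% of all tested genes. The ERK-selective members did not share this: the same ratio was 0.92 for DUSP6 and 1.01 for DUSP7, and 0.56 for DUSP9, which had few counts. DUSP4 and DUSP16 lay between, at 1.41 and 1.35. In TPA as well, library 1 was the highest for DUSP1, DUSP8, DUSP5 and DUSP10 (63.3, 39.9, 269 and 320 CPM). For these genes TPA 2 had 52.2, 32.9, 222 and 203 CPM, and TPA 3 had 55.9, 34.8, 236 and 208 CPM. DUSP16 was also highest in library 1 of each group (150 and 130 CPM), while DUSP4 was lowest in TPA 1 (80.7 CPM). In the same libraries the basal keratin gene KRT5 had 428 CPM in DMSO 1 against 1736 and 1780 CPM in DMSO 2 and DMSO 3, and 66.7 CPM in TPA 1 against 490 and 509 CPM in TPA 2 and TPA 3. KRT5 had the widest range in CPM of the 8 squamous markers. CDH1 had 615 CPM in DMSO 1 against 708 and 662 CPM in DMSO 2 and DMSO 3. KRT14, KRT6A and CDH1 had more CPM in TPA 2 and TPA 3 than in any DMSO library. The marker sum in TPA 2 and TPA 3 was lower than in DMSO 2 and DMSO 3, and higher than in DMSO 1. The part of these markers in the phosphatase values was not tested. The ratio of TPA to DMSO also followed transcript GC content, with a Spearman correlation across 11990 genes of -0.11 in pair 1, 0.67 in pair 2 and 0.61 in pair 3. The members' transcripts ran from 45.6% GC (DUSP10) to 65.6% (DUSP9).

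**Figure D3:**
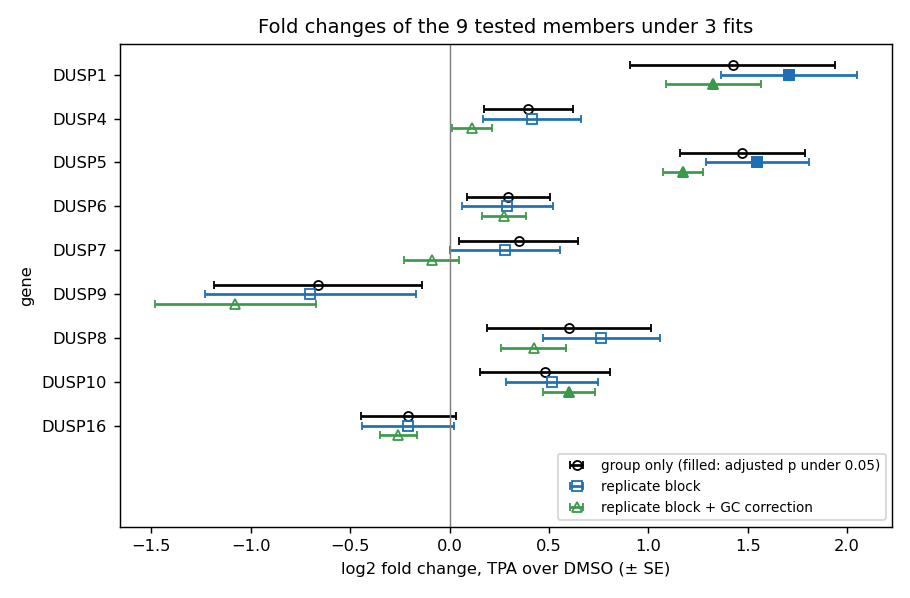
Log2 fold change of TPA over DMSO ± SE (x axis) for the 9 tested members, from the fit with the group only (black circles), with the replicate block (blue squares) and with the block and the GC correction (green triangles). Filled symbols passed at an adjusted p under 0.05, namely DUSP1 and DUSP5 with the block, and DUSP1, DUSP5 and DUSP10 with the GC correction added.

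Levels between genes were compared per kb of merged exon length (GENCODE 29), since longer transcripts give more reads. The level of DUSP6 carries the doubt given above over reads from the stretch shared with an antisense gene. In DMSO the order of mean levels was DUSP10 (59.96 ± 23.7 CPM per kb), DUSP5 (33.4 ± 14.1), DUSP16 (21.6 ± 4.05), DUSP7 (20.5 ± 1.15), DUSP1 (10.5 ± 8.44), DUSP4 (9.02 ± 1.88), DUSP8 (5.13 ± 3.18), DUSP6 (4.38 ± 0.242) and DUSP9 (0.180 ± 0.0640; SD, n = 3 each). Neighbours in this order overlapped across libraries, except that DUSP9 lay below DUSP6. Inside each DMSO library, DUSP10 lay above DUSP5 (87.3 against 49.7, 46.5 against 24.3 and 46.1 against 26.2 CPM per kb). DUSP5 likewise lay above DUSP16. Some steps rested on DMSO 1. In DMSO 2 and DMSO 3, DUSP7 lay above DUSP16 (21.5 and 19.2 against 20.4 and 18.4). There DUSP4 also lay above DUSP1 (7.78 and 8.09 against 5.17 and 6.18), and DUSP6 above DUSP8 (4.61 and 4.40 against 3.58 and 3.02). In TPA the order was DUSP5 (92.6 ± 9.19 CPM per kb), DUSP10 (83.7 ± 22.7), DUSP1 (28.3 ± 2.79), DUSP7 (26.0 ± 9.20), DUSP16 (18.7 ± 3.55), DUSP4 (11.9 ± 0.652), DUSP8 (7.77 ± 0.792), DUSP6 (5.38 ± 0.612) and DUSP9 (0.113 ± 0.0544). DUSP5 overlapped DUSP10, DUSP1 overlapped DUSP7 and DUSP7 overlapped DUSP16. In TPA 2 and TPA 3, DUSP5 lay above DUSP10 (84.9 and 90.3 against 69.7 and 71.4). DUSP7 lay above DUSP1 there (31.0 and 31.7 against 25.8 and 27.7) and above DUSP16. All of these were reversed in TPA 1. DUSP10 lay above DUSP1, and from DUSP16 down each gene lay above the next with no overlap.

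DUSP5 made up 18.1% to 21.8% of the summed level per kb of the 10 members in the DMSO libraries and 33.5% to 34.1% in the TPA libraries. DUSP10 made up 34.7% to 38.2% in DMSO, 35.8% in TPA 1 and 27.0% to 27.6% in TPA 2 and TPA 3. The sum was 228, 134 and 132 CPM per kb in DMSO 1, 2 and 3 and 307, 252 and 264 CPM per kb in TPA 1, 2 and 3. The ratio of DUSP5 to DUSP6, the nuclear and the cytoplasmic phosphatase of ERK, was 12.0, 5.26 and 5.95 in DMSO and 21.5, 15.9 and 15.0 in TPA, per kb. Reads of DUSP6 may be missing or foreign where it shares exonic bases with the antisense gene, so the size of this ratio is uncertain. These shares and ratios were chosen after the values were seen and carry no test.

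**Figure D4:**
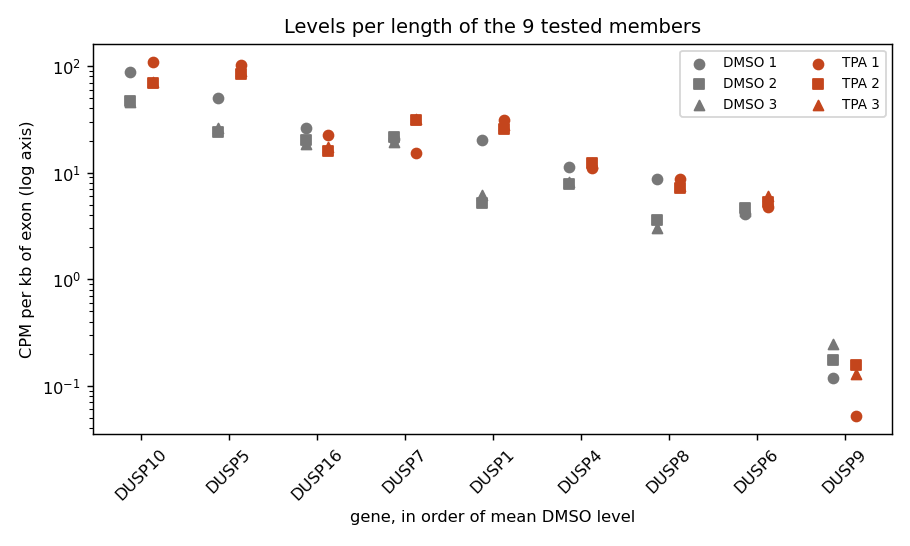
Level per length (y axis, CPM per kb of exon, log axis) of the 9 tested members in order of their DMSO mean (x axis), with DMSO libraries in grey, TPA libraries in red and symbols by library number. DUSP10 and DUSP5 lie highest in both groups, and DUSP9 lies far below the rest.

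The genes most like a member in pattern were taken for the member with the highest mean CPM of each class, by Pearson correlation of log2 CPM over the 6 libraries. For DUSP5 they were ARID3B, a DNA-binding factor gene, INPP1, an inositol phosphate phosphatase gene, PPIF, the mitochondrial cyclophilin gene, and CHAC1, which encodes a glutathione-degrading enzyme (r = 0.998 for all 4). Of these PPIF had the highest level, at 345 CPM in DMSO and 1394 CPM in TPA (log2 fold change 2.01, edgeR adjusted p = 0.0691). For DUSP10 they were CTH and ASNS (r = 0.997 each), which encode cystathionine gamma-lyase and asparagine synthetase, and PNO1 and TMEM39A (r = 0.996 each). For DUSP7 they included CAMSAP3 (r = 0.995), a microtubule minus-end gene, the 14-3-3 gene YWHAH (0.994) and GPR107 (0.994). With 6 libraries of which 2 pairs are close, such values describe the libraries and carry no p.

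The other genes of MAP kinase signalling were counted in 8 lists of 96 genes, 84 of them tested. Of the 84, 4 rose and 0 fell at an adjusted p under 0.05 (edgeR), against 0.861% higher and 0.394% lower of all genes. Kinases that activate MAP kinases stood among them: of 7 tested MAP2 kinases, MAP2K1 and MAP2K3 rose, 0 fell and 5 did not pass. MAP2K1 activates ERK, and had 109, 86.4 and 98.4 CPM in DMSO and 204, 295 and 295 CPM in TPA (log2 fold change 1.43 ± 0.23 SE, edgeR adjusted p = 0.0411). MAP2K3 activates p38, and had 126, 103 and 108 CPM in DMSO and 221, 336 and 320 CPM in TPA (1.38 ± 0.23, edgeR adjusted p = 0.0473). In both, every TPA library was above every DMSO library. MAP2K6, the other main activator of p38, is named after its values were seen. It had 2.63, 11.1 and 10.1 CPM in DMSO and 0.254, 1.04 and 1.17 CPM in TPA (log2 fold change -3.25 ± 0.71, edgeR adjusted p = 0.0672, and adjusted p = 0.00021 with the block).

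Of 15 tested transcripts commonly driven by ERK, SPRY2 and IER3 rose, 0 fell and 13 did not pass, and the median over this list, 0.84 in log2 fold change, compares with -0.11 over all genes. SPRY2, which restrains signalling from growth factor receptors to RAS, had 15.4, 17.5 and 15.8 CPM in DMSO and 45.6, 35.1 and 35.4 CPM in TPA (1.25 ± 0.22, edgeR adjusted p = 0.0491). IER3, a stress-induced survival gene, had 191, 130 and 127 CPM in DMSO and 715, 585 and 554 CPM in TPA (2.05 ± 0.24, edgeR adjusted p = 0.0250). With the block 7 members of this list were higher and 0 lower, against 4.58% of all genes higher and 6.52% lower. With the GC correction added the counts were 9 and 0, against 9.22% and 10.7% of all genes. Earlier results on these samples were known when the list was written, so its direction is not independent evidence.

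In the remaining lists 0 genes passed in the test of 3 against 3 libraries. Of 13 tested MAP kinases the lowest p values were those of MAPK10, the neuronal JNK gene (log2 fold change -0.80, edgeR adjusted p = 0.196), and of MAPK13, the epithelial p38 delta gene (0.70, 0.203), and the median over the MAP kinases was -0.00049. Of 18 MAP3 kinases, MAP3K5 had -1.11 (edgeR adjusted p = 0.0610) and MAP3K1 -1.01 (0.104), both upstream kinases of JNK, and both passed with the block (0.0183 and 0.0293). Among 10 tested atypical dual-specificity phosphatases, mostly small relatives without the kinase-binding domain, DUSP14 had 1.24 (edgeR adjusted p = 0.0545) and STYXL1, a catalytically inactive relative, 1.02 (0.0676). Both passed with the block (0.0169 and 0.0258). So did 2 lower genes of that list, DUSP19 (-1.54 with the block, edgeR adjusted p = 0.0364) and STYX, another inactive relative (-1.09, 0.0467), though neither did with the GC correction added (0.0571 and 0.0552). PTPRR, a tyrosine phosphatase that binds ERK, had 11.2, 3.02 and 2.51 CPM in DMSO and 28.4, 9.44 and 8.97 CPM in TPA (1.49 ± 0.70, edgeR adjusted p = 0.262, and 0.0042 with the block). Like DUSP10, and like DUSP1, DUSP5, DUSP8 and DUSP16, it was highest in the library numbered 1 of each group. The next in that list of 6 tested phosphatases was PPP2CB (0.38, edgeR adjusted p = 0.352). Of 9 tested kinases that MAP kinases activate, MKNK2 had 0.84 (edgeR adjusted p = 0.0746) and MAPKAPK3 0.95 (0.0885), and both passed with the block (0.0446 and 0.0488). RPS6KA5, which encodes the histone kinase MSK1, passed lower with the block (-1.06, edgeR adjusted p = 0.0492) and not with the GC correction added (0.0533). It, DUSP19 and STYX are named after their values were seen. Of 6 genes for proteins that bind AU-rich elements in short-lived messages, ZFP36 had 0.71 (edgeR adjusted p = 0.102) and ZFP36L1 1.17 (0.108), of which ZFP36L1 passed with the block (0.0133). With the block and GC correction, 4 MAP3 kinases were higher and 4 lower, and 1 MAP kinase was higher and 1 lower. The atypical phosphatases had 3 higher and 0 lower, and the kinases that MAP kinases activate had 3 and 0. The other phosphatases had 1 and 0, and the AU-rich element list 1 and 1. Of all genes, 9.22% were higher and 10.7% lower in that fit. Without DMSO 2 and without DMSO 3 no gene in the whole table passed (edgeR, 2612 and 2745 genes at an unadjusted p under 0.05). MAP2K1, MAP2K3 and SPRY2 passed with TPA 1 left out, as most genes did, but with none of the other 5 libraries left out, and IER3 passed without TPA 1 and without DMSO 1 (edgeR adjusted p = 0.000443 and 0.0338).

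**Figure D5:**
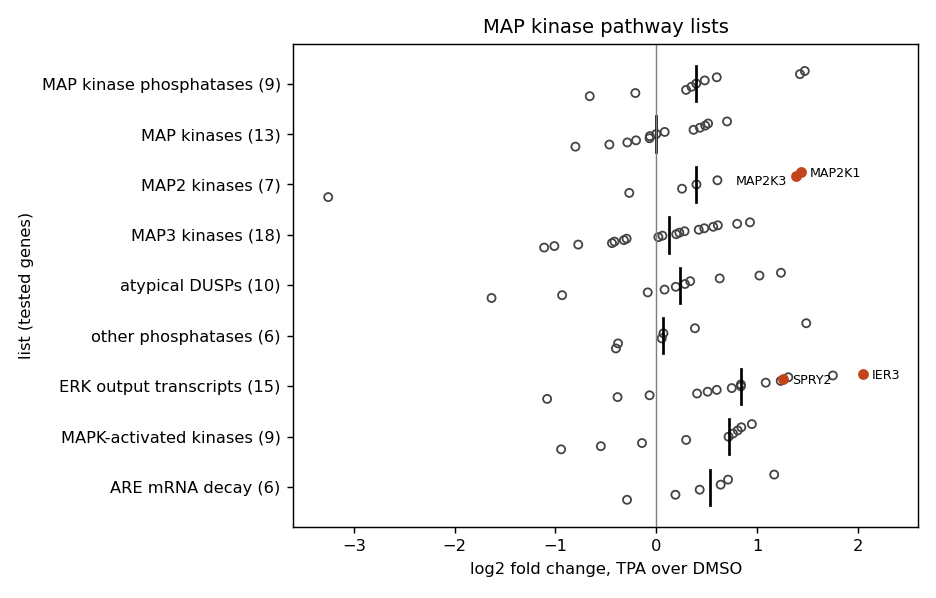
Log2 fold change of TPA over DMSO (x axis) of each tested gene in the phosphatase family and in 8 lists of MAP kinase signalling (y axis, number of tested genes in brackets), with a black line at the median of each list. Filled red points passed at an adjusted p under 0.05, namely MAP2K1, MAP2K3, SPRY2 and IER3.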

How the data were processed

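RNA was extracted with TRIzol and sequenced on libraries made by standard Illumina methods, per the labels' protocols. The deposited table holds raw counts per gene symbol for 3 TPA and 3 DMSO libraries. Per the submitters' processing notes, the tools were HISAT2 2.1.0 and HTSeq 0.12.4 and the build hg38 (GRCh38). The annotation and strand setting behind the counts were not given in the sources used here. Columns named control were matched to DMSO samples of the same number, 0 columns fell outside the labels and 0 rows named no gene.

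The main test of TPA against DMSO was the quasi-likelihood test of edgeR 4.0.16 in R 4.3.3, with TMM factors and no other term, on the 21825 genes that filterByExpr kept, with Benjamini-Hochberg adjusted p under 0.05 as the threshold. CPM values are counts over the TMM-scaled library size. Standard errors are the log2 fold change over the square root of F. Floors (3 counts) cover counting error only.

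The libraries of both groups share numbers 1 to 3. After subtracting group means, libraries 1, 2 and 3 of both groups correlated at 0.55, 0.34 and 0.37 across genes, so the numbers were used as pairs. This pairing comes from the data, as no label names a shared culture. Crossing numbers 2 and 3 gave values as high (0.356 and 0.374), so only number 1 is set apart.

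Gene coordinates, exon lengths and GC content came from GENCODE 29 (GRCh38), which matched 37689 symbols by current name and 18777 by release name of 60591. Promoters came from RefSeq (GRCh38.p14). The members and lists were chosen with earlier results of these data known. All members are named, with the passing genes of each other list or else the 2 of lowest p, and the 4 genes most like the highest member of each class (average log2 CPM of at least 1). A gene that this rule takes is not reported here. Alternatives were RLE factors, library size only, no filter, a stricter filter (60 counts in all, and 1 CPM throughout a group), DESeq2 1.42.0, limma-voom (limma 3.58.1), the block, the block with a GC correction (robust spline, 5 degrees of freedom), each library left out, and both libraries numbered 1 left out. The edgeR fits with the group only and with the block were also run on simulated counts. Those counts held no replicate effect and no GC trend, so they do not test the pairing or the GC correction.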

Additional observations from a re-analysis of the deposited data

How the results depend on the processing

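The count of members called higher was 0 in the comparison of 3 with 3 libraries (0.861% of all genes higher). It was 1 with no filter (1.06% of all genes), 2 with DESeq2 (7.80%) and 1 with limma-voom (1.13%). The replicate block gave 2 (4.58%), and the block with GC correction 3 (9.22%). With both libraries numbered 1 left out it was 7. That fit sets 2 close libraries against 2 and called 32.2% of all genes higher and 33.3% lower. Leaving out 1 library gave 0 to 4, the 4 without TPA 1 (DUSP4, DUSP5, DUSP6 and DUSP7), where 24.6% of all genes were higher and 27.8% lower, and 2 without DMSO 1 (DUSP1 and DUSP5), where 0.449% and 0.169% were. The count of members called lower was 0 under every alternative run. Among the log2 fold changes of single members under these alternatives, 1 changed direction: DUSP7 was -0.090 with the block and GC correction. Another 111 kept their direction and did not pass, and 22 kept their direction and passed. The block changed the call of DUSP1 and DUSP5 and of no other member. Scaling by library size alone shifted the all-gene median by log2 from -0.11 to -0.36 and that of the members from 0.40 to 0.14, with no change of direction among the members. MAP2K3 and SPRY2 did not pass with library size alone (edgeR adjusted p = 0.0524 and 0.0623), and SPRY2 did not with the stricter filter (0.0503). The cause of these changes was not tested. DUSP2 had no tested value in the main comparison, and DUSP9 (4 to 21 counts) was not tested under the stricter filter. With the 250 bases before the start site alone, the NF-kB motif was in the promoter of 0 members in place of 1, and CCAAT in that of 3 in place of 4.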
